A study of Mus musculus with 13 samples.

Results

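The 37958 leukocytes of the liver atlas described here came from 12 single-cell RNA-seq libraries of mice on a bile-duct-damaging diet or on control chow. They were 37958 of the 87083 barcodes with at least 1500 unique molecular identifiers (UMIs, counted RNA molecules). Each barcode was placed in a class by fixed minimum UMI counts of a few marker genes, the gates, applied in a set order. A neutrophil needed 10 UMIs of S100a8 and 1 of Csf3r, and a B cell needed 2 of Cd79a. A T cell needed 2 of Cd3e, Cd3d and Cd3g together, an NK cell 2 of Ncr1 and Klrb1c together, and a plasmacytoid dendritic cell (pDC) 3 of Siglech. A Kupffer cell (KC) needed 2 of Clec4f, any other macrophage 5 of C1qa, C1qb and C1qc together, and a monocyte 10 of Lyz2 and 1 of Ccr2. The gates gave 4181 neutrophils, 1583 B cells, 11691 T cells, 1614 NK cells, 2293 pDC, 4698 KC, 9494 other macrophages and 2404 monocytes. The members were thus chosen by measured UMI counts of these genes, and the levels of the gate genes are no result.

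The mice were C57BL/6J males fed chow with 0.1% DDC (3,5-diethoxycarbonyl-1,4-dihydrocollidine), or control chow without it on day 0 (D0). Livers were taken on D0, D3, D5, D9, D19 and D25, and cells were isolated by protocol A and by protocol B on each day, which gave 1 library per day and protocol. The stages compared were D0 (2 libraries), D3-D5 (4 libraries) and D9-D25 (6 libraries). One D19 library of protocol B carries day 18 in its group label. Protocol A mixed sorted live singlets and Cd45+ cells with Lyve-1+, Pdpn+, Epcam+, Cd31+ and retinoid-autofluorescent cells at equal ratios. Protocol B mixed live cells of a stellate cell preparation with Cd45+ Cd11c+ Cd64-, Epcam+ and Cd3e+ Lyve-1- cells. The sort of protocol B can therefore set the share of T cells, Cd11c+ cells and Cd64+ macrophages in its libraries. Shares were compared only within a protocol, but the cell mix also differed between libraries of the same protocol. Over all barcodes of at least 1500 UMIs, biliary genes had 22.7 counts scaled to depth (CPM) at D0 in protocol B. On DDC they were at 564 to 988 CPM there. In protocol A they were at 993 CPM at D0, 13.4 and 25.3 at D3 and D5, and 85.5 to 1548 at D9-D25. What this mix adds to the shares was not tested. The labels do not say which or how many mice gave a library, nor whether both protocols of a day shared mice, so the spread between libraries may be technical in part, and every p-value below measures only that spread. With days in place of libraries as units, the smallest p possible would be 0.167 for DDC against D0 and 0.1 for D9-D25 against D3-D5.

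DDC damages small bile ducts and gives a sclerosing cholangitis with a ductular reaction. The healthy mouse liver holds resident macrophages, the KC, in its sinusoids, together with NK cells, innate-like T cells, passing B cells and neutrophils. After injury, blood monocytes enter through the chemokine receptor Ccr2 and can become macrophages. In cholestatic and fatty liver disease, macrophages with the glycoprotein Gpnmb and the lipid receptor Trem2 are known to gather around bile ducts and scars.

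Library depth ran from 29307190 to 108602421 UMIs. Leukocytes were 20.4% to 66.7% of the barcodes of a library, and 975 (D3, protocol B) to 5294 (D9, protocol A) in number. Median UMIs per leukocyte were 2782 and 3266 in the 2 D0 libraries and 5240 to 12159 on DDC. Of the members, 1.84% to 16.4% per library met the gates of 2 lineages, and no doublet caller was run. Among 33232 barcodes rich in endothelial genes, 18.4% fell in a leukocyte class, most often the other macrophages (7.05%) and KC (5.67%). Each of the 66 library pairs shared at most 0.46% of the smaller library's barcodes, 919 in all.

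Marker genes outside the gates were higher in their own class than in the other classes for 10 of 10 neutrophil, B, T and pDC genes, 9 of 10 NK genes, 8 of 8 KC genes, 9 of 9 other macrophage genes and 8 of 10 monocyte genes. The exception among NK genes was Cxcr6, which was nearly without counts in all leukocytes, with 0 in the NK class and 0.0585 counts scaled to depth (CPM) in the other classes, T cells included, so that its 0 is not read as a property of NK cells. The exceptions among monocyte genes were Treml4 and Ly6c2, the latter at 102 CPM in monocytes and 235 CPM in the other classes. Some labels did not hold in every library. In the T class of protocol A the NK list was higher than the T list at D3, D5 and D19, and the other macrophage list at D25. Another list also led in the B cell class at D9 of protocol B (15 barcodes) and D19 of protocol A (22), and in the NK class at D5 of protocol B (36) and at D19 and D25 of protocol A (12 and 15). Of all barcodes that met the NK gate, 50.4% also met the T gate, which came first. In protocol B the neutrophil class held 0 UMIs of the neutrophil marker Ly6g in the 41, 47 and 127 barcodes of D5, D9 and D19, and 1 UMI in the 220 barcodes of D25, against 3 UMIs in 89 barcodes at D0. The neutrophil chemokine receptor gene Cxcr2 was found in 34.1%, 40.4%, 52.8% and 30.5% of those 4 sets of barcodes after thinning to 1500 UMIs, against 29.2% at D0 and 0.0171% of T cells. The neutrophil list led there, but most of it was S100a9, the partner of the gate gene S100a8 (11898 of 13503 CPM at D25). The lead of that list is therefore no separate check of the label. Of KC members, 18.8% were at the minimum of 2 Clec4f UMIs, and 4481 barcodes outside the class lay 1 UMI below it. For the other gates 0.933% (neutrophils, S100a8) to 15.3% (NK cells) of the members were at the minimum.

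**Figure D1:**
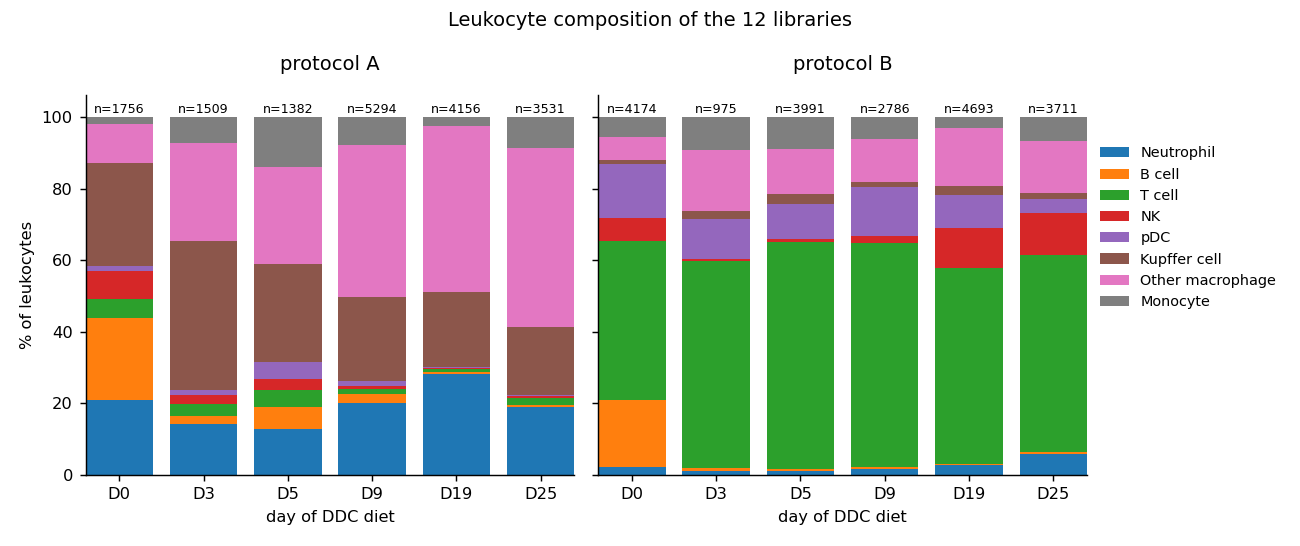
Stacked bars show the share of each gated class (percent of leukocytes, y axis) for the 6 libraries of protocol A and the 6 of protocol B, ordered by day of diet (x axis), with the number of leukocytes above each bar. The B cell band is wide at D0 only, and the other macrophage band is wider on DDC than at D0 in both protocols.

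B cells made up a large share of the leukocytes at D0 and a small one on DDC. In protocol A they were 22.9% of leukocytes at D0 (exact 95% binomial interval 21.0 to 25.0), then 2.39% at D3, 6.22% at D5, 2.72% at D9, 0.529% at D19 and 0.538% at D25. In protocol B they were 18.9% at D0 (17.7 to 20.1), then 0.821% at D3, 0.677% at D5, 0.538% at D9, 0.384% at D19 and 0.458% at D25. All 10 DDC libraries lay below the D0 library of their protocol. The DDC mean was 2.48% ± 2.33 (SD, n = 5) in protocol A and 0.575% ± 0.175 (SD, n = 5) in protocol B. These means were 9.26-fold and 32.8-fold lower than D0. The sort of protocol B named no B cell fraction, and what the cell mix of a library adds to this drop was not tested. Averaged over both protocols the difference was -19.4 percentage points (exact permutation within protocol, two-sided, p = 0.0278, the smallest p its 36 arrangements can give, adjusted p = 0.111 over the 8 classes). A quasi-likelihood test in edgeR on cell numbers, an alternative test, gave a log2 change of -4.32 ± 0.66 (SE, adjusted p = 0.000189). The interval of a share covers counting error only, and over all 96 shares it reached at most 3.15 points to either side.

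The B cell share of D0 moved with the UMI floor in protocol B. The D0 library of protocol B held 1256 further barcodes of the B cell gate between 500 and 1500 UMIs, besides the 788 above, against 29 besides 403 in protocol A. With a floor of 500 UMIs the D0 share was 34.8% in protocol B and 20.1% in protocol A. Over 11 other settings of the floor, the gates and the denominator, the B cell difference lay between -33.3 and -8.22 points. Of barcodes rich in endothelial genes, the share in the B cell class moved the same way. It was 1.65% at D0 and 0.166% to 0.588% on DDC in protocol A, and 4.65% and 0% to 0.679% in protocol B. In barcodes with at most 100 UMIs, Cd79a was at 680 CPM at D0 and 0.471 to 16.7 CPM on DDC in protocol B. In protocol A it was at 34.5 and 1.21 to 24.2 CPM. What this background adds to the B cell share was not tested.

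Among lymphocytes alone (B, T and NK cells), the B cell share was 63.6% at D0 in protocol A and 17.8% to 56.0% on DDC. In protocol B it was 27.1% at D0 and 0.580% to 1.39% on DDC. The difference averaged -27.2 points (exact permutation, p = 0.0278). The T cell share of lymphocytes was 14.7% at D0 and 28.8% to 68.2% on DDC in protocol A. In protocol B it was 63.6% at D0 and 81.7% to 97.9% on DDC. That difference averaged 29.0 points (exact permutation, p = 0.0278), and it is not separate from the B cell one, since these shares add up to the whole. Lymphocytes as a whole were 36.1% of the protocol A leukocytes at D0 and 1.83% to 14.04% on DDC. In protocol B, where the sort enriched Cd3e+ cells, they were 69.7% at D0 and 59.2% to 67.3% on DDC. The average difference was -17.4 points (exact permutation, p = 0.0278). These ratios were chosen after the shares were seen. In protocol A they rest on 634 lymphocytes at D0 and 76 to 257 on DDC. There another list led in the T class at D3, D5, D19 and D25. Another list also led there in the B cell class at D19 and in the NK class at D19 and D25.

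The T cell share on DDC lay on opposite sides of D0 in the 2 protocols. In protocol A they were 5.30% of leukocytes at D0 and 3.25%, 4.78%, 1.40%, 1.01% and 2.07% at D3, D5, D9, D19 and D25. In protocol B they were 44.4% at D0 and 57.9%, 63.4%, 62.5%, 54.6% and 55.0% on the same days. All 5 DDC libraries lay below D0 in protocol A and all 5 above it in protocol B, where Cd3e+ cells were sorted. The averaged difference was 5.77 points (exact permutation, p = 0.167, adjusted p = 0.356), with 3.38 to 15.5 points over 10 other settings. Its sign turned for log2 shares (-0.45) and by edgeR on cell numbers (log2 change -0.46), so no direction is read.

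NK cells, cytotoxic innate lymphocytes that are common in the healthy mouse liver, were 7.86% of protocol A leukocytes at D0. On DDC they were 2.52% at D3, 3.04% at D5, 0.737% at D9, 0.289% at D19 and 0.425% at D25. In protocol B the share was 6.47% at D0, 0.410% at D3 (4 barcodes), 0.902% at D5, 2.01% at D9, 11.2% at D19 and 11.9% at D25. Both protocols had their D3 and D5 libraries below D0. From D9 on, protocol A stayed below its D3-D5 libraries and protocol B lay above them, with all 3 libraries outside the D3-D5 range in each. The averaged difference between D9-D25 and D3-D5 was 2.70 points (exact permutation, p = 0.38, adjusted p = 0.38), with 2.00 to 8.95 points over 11 other settings. The Eomes level of the NK class had overlapping ranges in the 2 protocols. These ranges cover unlike days, and a difference between the protocols was not tested. Eomes, the transcription factor of conventional NK cells, was read in libraries with at least 20 NK barcodes. It was at 51.9 to 301 CPM of the class in the 4 such protocol A libraries (D0, D3, D5 and D9). In the 5 such protocol B libraries (D0, D5, D9, D19 and D25) it was at 12.4 to 69.4 CPM. After thinning each barcode to 1500 UMIs, 7.69% to 37.7% of NK barcodes had an Eomes UMI in protocol A. In protocol B 1.79% to 10.4% had one, against 0% of B cells. This share also moved with the day. The averaged difference between DDC and D0 was -11.6 points (exact permutation, p = 0.25, adjusted p = 0.788). Between D9-D25 and D3-D5 it was -11.6 points as well. The integrin gene Itga1 did not separate the protocols. It was found in 7.89% to 17.9% in protocol A and 3.70% to 19.3% in protocol B, against 6.51% of B cells.

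pDC, the main source of type I interferon among dendritic cells, were 15.1% of protocol B leukocytes at D0 and 11.4%, 9.70%, 13.6%, 9.35% and 3.85% at D3, D5, D9, D19 and D25. In protocol A they were 1.42% at D0 and 0.217% to 4.78% on DDC. All 5 DDC libraries of protocol B lay below D0. In protocol A 4 of 5 did, but D3 (1.39%) and D9 (1.42%) were close to D0, and the DDC mean of 1.61% lay above it. The averaged difference was -2.67 points (exact permutation, p = 0.222, adjusted p = 0.356), with -9.03 points at a floor of 3000 UMIs and -0.592 points after thinning.

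**Figure D2:**
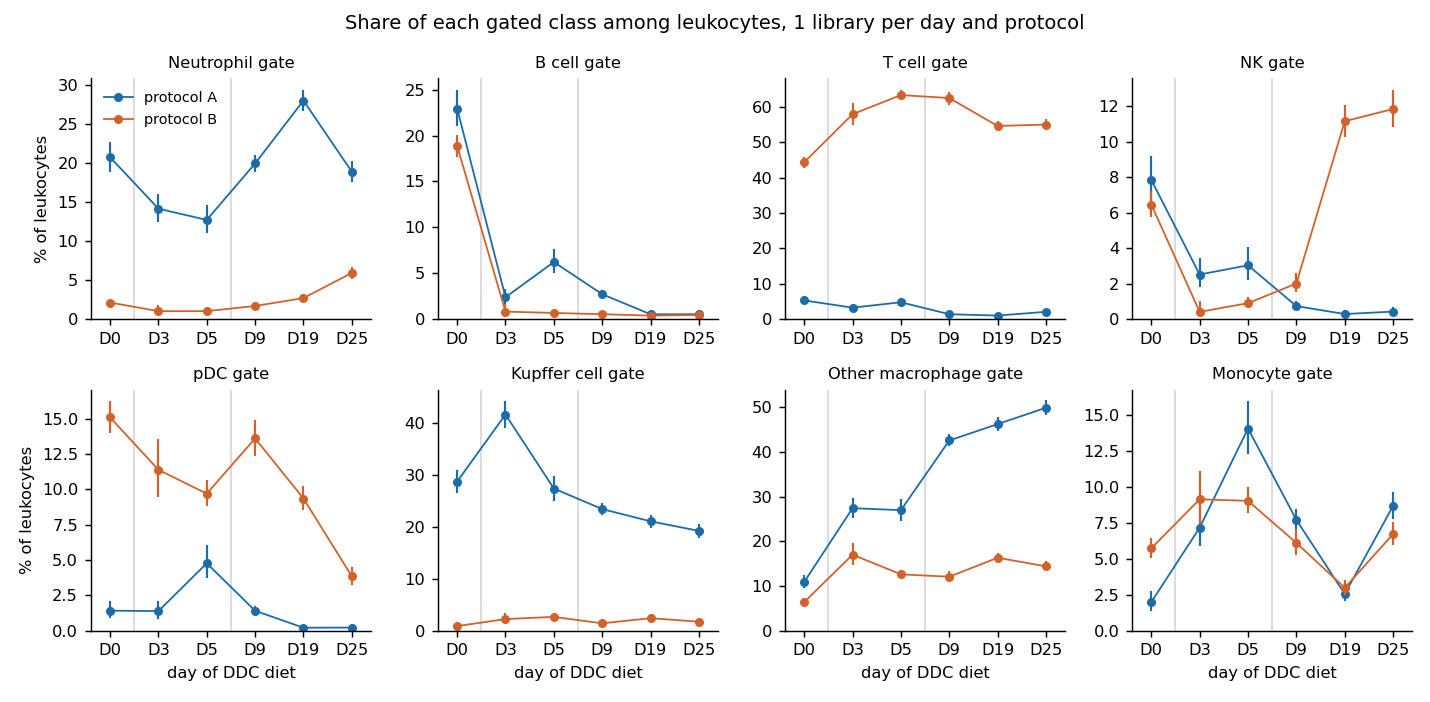
Each panel plots the share of 1 gated class (percent of leukocytes, y axis) against the day of DDC diet (x axis, days evenly spaced), in blue for protocol A and orange for protocol B. Points are single libraries, vertical bars are exact 95% binomial intervals, and grey lines separate D0, D3-D5 and D9-D25. B cells are at 22.9% and 18.9% at D0 and at most 6.22% on DDC, and NK cells of D9-D25 lie below those of D3-D5 in protocol A and above them in protocol B.

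Macrophages outside the KC gate were a larger share on DDC than at D0 in every library. In protocol A they were 10.9% of leukocytes at D0, 27.4% at D3, 27.0% at D5, 42.6% at D9, 46.2% at D19 and 49.9% at D25. In protocol B they were 6.42% at D0, 17.0% at D3, 12.6% at D5, 12.1% at D9, 16.3% at D19 and 14.4% at D25. The DDC means, 38.6% ± 10.7 (SD, n = 5) and 14.5% ± 2.18 (SD, n = 5), were 3.53-fold and 2.26-fold of D0. The averaged difference was 17.9 points (exact permutation, p = 0.0278, adjusted p = 0.111), and edgeR on cell numbers gave a log2 change of 1.47 ± 0.41 (SE, adjusted p = 0.0145). The difference lay between 7.53 and 29.6 points over 11 other settings, and between 8.08 and 27.7 points with 1 library left out. Of barcodes rich in endothelial genes, the share that fell in this class moved the same way, from 1.38% at D0 to 3.76% to 19.4% on DDC in protocol A, and from 0.581% to 4.79% to 16.7% in protocol B. With barcodes rich in endothelial, biliary or fibroblast genes left out, the difference was 16.4 points (exact permutation, p = 0.0278). In barcodes with at most 100 UMIs of protocol A, C1qa was at 914 CPM at D0 and 762 to 2929 CPM on DDC. C1qb was at 695 and 841 to 4547 CPM, and C1qc at 614 and 492 to 2007 CPM. In protocol B they were at 219, 370 and 239 CPM at D0, and at 521 to 888, 907 to 1479 and 247 to 562 CPM on DDC. What this background adds to the share was not tested.

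In protocol A the other macrophages were a larger share at D9-D25 than at D3-D5. The 3 D9-D25 libraries averaged 46.2% and lay above both D3-D5 libraries, by 19.03 points on average. In protocol B, which sorted Cd64- cells, the D9-D25 mean was 0.542 points below that of D3-D5 and the ranges overlapped. The averaged difference was 9.24 points (exact permutation, p = 0.08, adjusted p = 0.144), and whether the protocols differ was not tested. It was 2.07 points with the gates in reverse order and at most 14.03 points over 11 other settings.

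KC, identified by the C-type lectin Clec4f, were 28.8% of protocol A leukocytes at D0, 41.7% at D3, 27.4% at D5, 23.5% at D9, 21.1% at D19 and 19.3% at D25. In protocol B they were 0.910% at D0 and 1.44% to 2.68% on DDC. The D9-D25 libraries of protocol A lay below both D3-D5 libraries, by 13.3 points on average. Over both protocols the difference was -6.94 points (exact permutation, p = 0.02, adjusted p = 0.08). That value turned its sign with the gate order and with the denominator, and the cause was not tested. Of barcodes that met the KC gate, 84.8% also met the gate of the other macrophages. With barcodes of 2 or more gates left out the difference was 0.509 points, with the gates in reverse order 0.781, and over all barcodes 0.590. Without the D3 library of protocol A it was -3.37 points. Against D0, the difference of all DDC libraries was -0.486 points (exact permutation, p = 0.917, adjusted p = 0.917).

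Among macrophages, the KC were 72.5% at D0 in protocol A, 60.3% at D3, 50.4% at D5, 35.5% at D9, 31.3% at D19 and 27.8% at D25. Each of the 5 DDC libraries lay below D0, and the 3 of D9-D25 below the 2 of D3-D5. In protocol B the KC were 12.4% of macrophages at D0 and 10.6% to 17.5% on DDC, with D0 inside the DDC range.

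**Figure D3:**
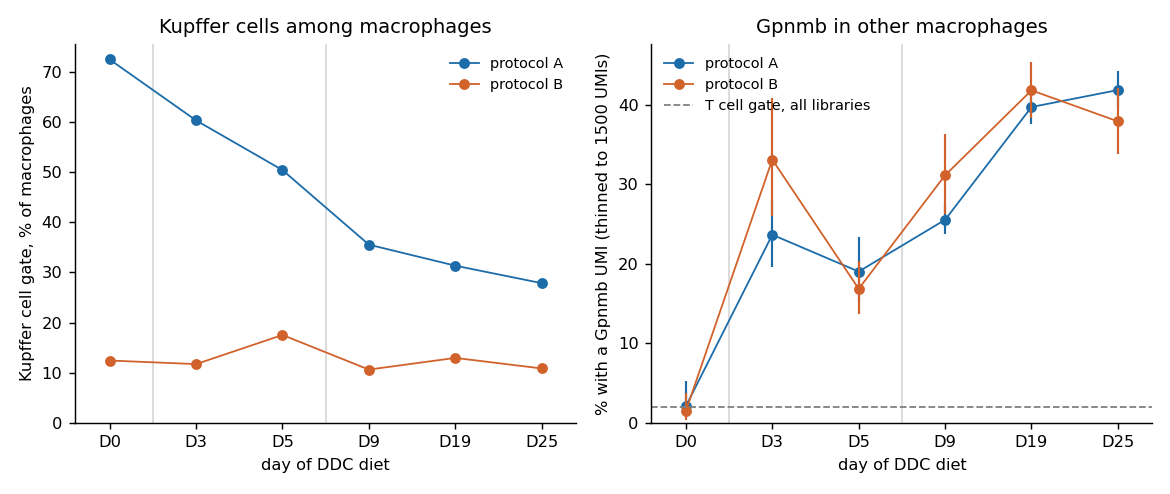
The left panel plots KC as a percentage of KC and other macrophages by day, and the right panel the percentage of other macrophages with a Gpnmb UMI after thinning to 1500 UMIs, with exact 95% binomial intervals; blue is protocol A, orange protocol B, and points are single libraries. In the right panel both D0 libraries (2.08% and 1.49%) sit at the dashed background of 1.93% in T cells, and all 10 DDC libraries lie at 16.9% or higher.

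Gpnmb was found in a larger share of the other macrophages on DDC than at D0. After thinning to 1500 UMIs, 2.08% of 192 other macrophages had a Gpnmb UMI at D0 in protocol A and 1.49% of 268 in protocol B. The background in T cells was 1.93%. On DDC the share in protocol A was 23.7% at D3, 19.03% at D5, 25.6% at D9, 39.8% at D19 and 41.9% at D25. In protocol B it was 33.1%, 16.9%, 31.2%, 41.9% and 37.9% on those days. All DDC libraries lay above both D0 libraries, by 29.3 points on average (exact permutation, p = 0.0278, the smallest possible, adjusted p = 0.333 over 24 subsets). The D9-D25 libraries averaged 13.2 points more than those of D3-D5 (exact permutation, p = 0.05, adjusted p = 0.6), and 8.61 points without thinning (p = 0.26). The fractalkine receptor Cx3cr1 was found in 39.1% of other macrophages at D0 in protocol A and in 16.4% to 34.5% on DDC, but in 28.0% at D0 in protocol B and in 28.8% to 40.1% on DDC. The KC gene Vsig4, a complement receptor, was found in 10.9% at D0 in protocol A and in 5.07% to 9.63% on DDC, but in 1.49% at D0 in protocol B and in 2.58% to 5.42% on DDC. The averaged DDC differences were -2.70 and -0.259 points (exact permutation, p = 0.667 and 0.833, adjusted p = 0.833 and 0.952). Without thinning they were 6.13 and 3.20 points (exact permutation, p = 0.333 and 0.25), so no direction is read for either gene.

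The monocyte share was above the D0 library of its protocol in 9 of the 10 DDC libraries. In protocol A they were 1.99% of leukocytes at D0, 7.16% at D3, 14.04% at D5, 7.71% at D9, 2.55% at D19 and 8.67% at D25. In protocol B they were 5.73% at D0, 9.13% at D3, 9.02% at D5, 6.10% at D9, 2.98% at D19 and 6.71% at D25. The label is less sure in protocol B, which sorted Cd11c+ Cd64- cells and where the monocyte genes Ly6c2 and Chil3 were low (below). Conventional dendritic cell genes were at 712 CPM in the class over all libraries. Whether the protocol B class holds dendritic cells was not tested. The D19 library of protocol B was the one below its D0. In both protocols D19 held the smallest DDC share and D3 or D5 the largest. The averaged DDC difference was 3.55 points (exact permutation, p = 0.222, adjusted p = 0.356), with 0.808 points at a floor of 3000 UMIs and 14.6 points with the gates in reverse order, and D9-D25 against D3-D5 gave -4.05 points (p = 0.06 by exact permutation, adjusted p = 0.144). The last value was 0.276 points when each barcode was thinned to 1500 UMIs before the gates. With 1 library left out, the DDC difference ran from 1.06 to 6.03 points, and that of D9-D25 against D3-D5 from -5.77 to -2.33 points.

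Ly6c2, the marker of classical monocytes, depended on 1 small library. After thinning, it was found in 54.3% of the monocyte class at D0 in protocol A, of only 35 barcodes, and in 12.0% to 21.3% on DDC. In protocol B it was 8.37% at D0 and 2.14% to 6.74% on DDC. The averaged difference was -21.0 points (exact permutation, p = 0.0278, adjusted p = 0.333), against a background of 0.404% in KC. Without thinning, the share in protocol B was 17.6% at D0 and 9.29% to 27.0% on DDC, so that D0 lay within the DDC range, and the averaged difference had p = 0.0833 by exact permutation.

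The neutrophil share was lowest at D3-D5 in both protocols. In protocol A they were 20.8% of leukocytes at D0, 14.2% at D3, 12.7% at D5, 19.98% at D9, 28.1% at D19 and 18.9% at D25. In protocol B they were 2.13% at D0, 1.03% at D3, 1.03% at D5, 1.69% at D9, 2.71% at D19 and 5.93% at D25. The 3 D9-D25 libraries lay above both D3-D5 libraries in each protocol, by 8.86 and 2.41 points, or 1.66-fold and 3.35-fold. In protocol B the class held only 10 barcodes at D3 and 41 at D5. Its label is less sure there, since Retnlg was low from D5 on (below), while Cxcr2 was not (above). The averaged difference was 5.64 points (exact permutation, p = 0.02, adjusted p = 0.08), but 1.62 points at a floor of 3000 UMIs. The difference between DDC and D0 was -0.834 points (exact permutation, p = 0.694, adjusted p = 0.794), and it was above 0 in several other settings, up to 0.930 points, so no direction is read. Across the 8 classes, 0 passed an adjusted p of 0.05 in either comparison by permutation, and 2 had an unadjusted p under 0.05 in each. By edgeR on cell numbers, 2 passed for DDC against D0 and 0 for D9-D25 against D3-D5.

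Levels within a class are given as CPM of that class, for libraries with at least 20 of its barcodes and with no test. In KC, the phosphatidylserine receptor Timd4, a marker of long-resident KC, was at 472 CPM at D0 in protocol A and at 278, 297, 215, 332 and 207 CPM at D3, D5, D9, D19 and D25. Protocol B had 411 CPM at D0 and at 195, 206, 282, 248 and 156 CPM on DDC. All 10 DDC libraries lay below both D0 libraries. Nr1h3, which encodes the KC nuclear receptor LXR-alpha, was at 570 and 449 CPM at D0. It was at 381 and 379 CPM at D3, 254 and 197 at D5, 215 and 138 at D9, 158 and 144 at D19, and 154 and 185 at D25, each time in protocol A and B. No DDC library reached a D0 level. The scavenger receptor Marco was at 222 and 894 CPM at D0, at 799 to 1226 CPM from D3 to D9, and at 1754 to 4622 CPM at D19 and D25. Its 4 D19 and D25 libraries lay above the other 8. Cd5l, a secreted KC protein, showed no such order, with 2544 and 4236 CPM at D0 and 2651 to 5411 CPM on DDC.

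In the other macrophages, Gpnmb was at 37.4 and 23.2 CPM at D0 in protocol A and B. It was at 357 and 661 CPM at D3, 406 and 225 at D5, 365 and 498 at D9, 1090 and 1517 at D19, and 968 and 921 at D25. Trem2 was at 136 and 152 CPM at D0, at 375 to 667 CPM from D3 to D9, and at 684 to 973 CPM at D19 and D25. Both genes were higher in every DDC library than in either D0 library.

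In the monocyte class Chil3, a chitinase-like protein of inflammatory monocytes and macrophages, was at 313 CPM at D0 in protocol A. It was at 408, 564, 1631, 3774 and 1690 CPM at D3, D5, D9, D19 and D25. In protocol B it was at 39.4 CPM at D0 and 23.7 to 166 CPM on DDC. Retnlg, a resistin-like protein of mature neutrophils, separated the neutrophil classes of the protocols. It was at 1718 to 6050 CPM in the 6 protocol A libraries and at 4331 CPM at D0 in protocol B. At D5, D9, D19 and D25 in protocol B it was at 25.0, 67.2, 246 and 86.1 CPM. S100a9, the partner of the gate gene S100a8, was at 11898 to 27354 CPM in those 4 libraries.

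**Figure D4:**
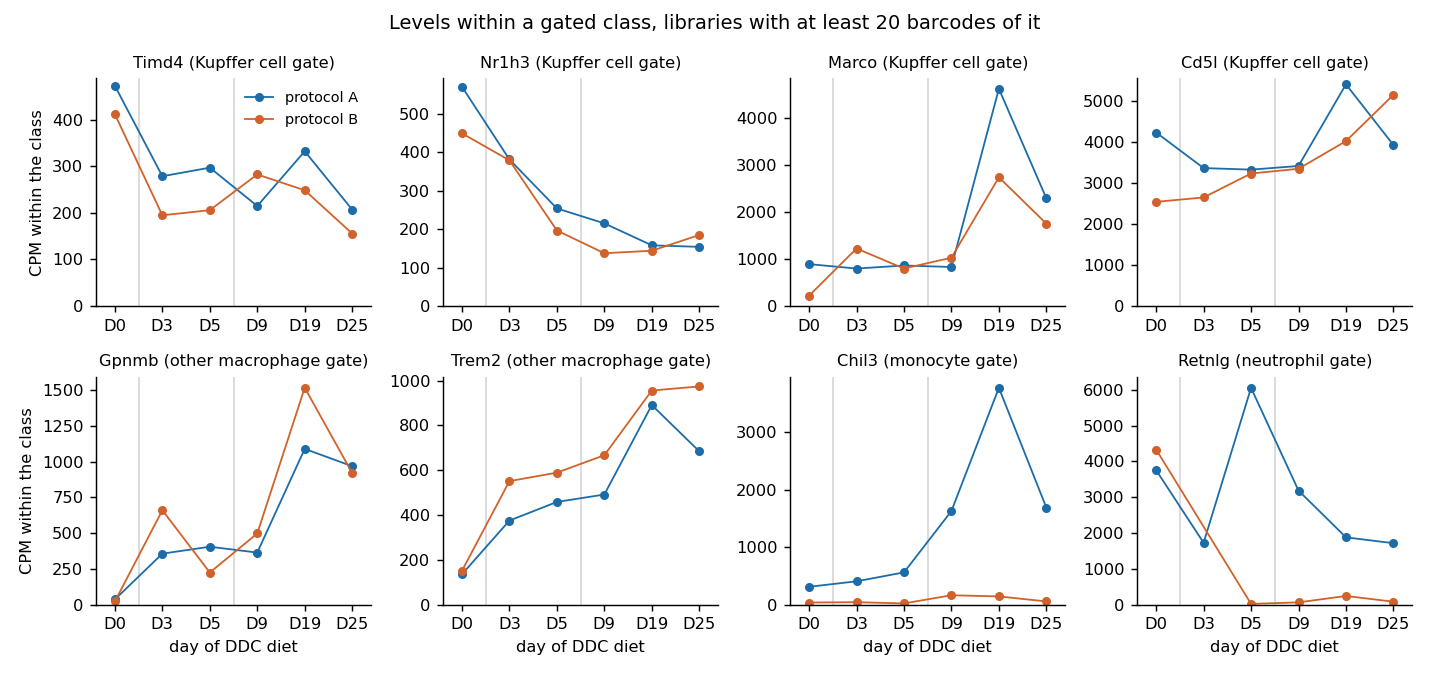
Each panel plots a gene's CPM within its gated class (y axis, linear from 0) by day of diet (x axis), for libraries with at least 20 barcodes of the class; blue is protocol A and orange protocol B. Timd4 and Nr1h3 in KC are highest at D0, Gpnmb and Trem2 in other macrophages are lowest at D0, and Retnlg in the protocol B neutrophil class is at or below 246 CPM on DDC (no value at D3, where the class had 10 barcodes).

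To read genes that the gates did not use, counts were summed over the leukocytes of each library and fitted with edgeR, with the protocol as a term. Only barcodes that passed a gate were summed, so the sums are no check separate from the gates. Of the UMIs of the B cell gene Ebf1 at D0, 95.3% in protocol A and 92.3% in protocol B were in the B cell class. In such sums, fewer cells of a type and less RNA per cell cannot be told apart. Against D0, 63 of 17266 genes (0.365%) passed an adjusted p of 0.05 at D3-D5, 30 higher and 33 lower. At D9-D25, 350 genes (2.03%) passed, 162 higher and 188 lower. Between D9-D25 and D3-D5, 2 genes (0.0116%) passed, both lower. At an unadjusted p under 0.05 the last comparison had 1569 genes, and DESeq2 called 218. Both D0 comparisons rest on the same 2 D0 libraries. At D3-D5 the count was 1798 without the D0 library of protocol A, 0 without D5 of protocol B, 2 and 28 without D3 and D5 of protocol A, and 4 without D3 of protocol B. It was 41 and 8 without D9 and D19 of protocol B. Without D0 of protocol B it was 51, of which 11 were among the 63. At D9-D25 it was 313 without D0 of protocol B, of which 117 were among the 350. It was 2932 without D0 of protocol A, 224 and 181 without D19 and D25 of protocol A, and 222, 181 and 233 without D9, D19 and D25 of protocol B.

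The B cell list had the largest share of called members among the 17 lists, for both stages against D0. Against D0, 7 of 10 were lower at D3-D5 (0.191% of all genes tested were called lower), with a median log2 change of -3.83 against -0.03 over all genes. At D9-D25, 9 of 10 were lower (1.09% of all genes), with a median of -4.91 against 0.02. Ebf1, a transcription factor of early and mature B cells outside that list, was at 264 CPM of summed leukocytes at D0 in protocol A and 317 CPM in protocol B. On DDC it was at 14.03, 42.6, 18.5, 5.65 and 4.13 CPM in protocol A and at 2.57 to 7.74 CPM in protocol B. Its log2 change was -4.61 ± 0.69 (SE) at D3-D5 (edgeR adjusted p = 0.0244) and -5.83 ± 0.60 at D9-D25 (edgeR adjusted p = 0.00107). Cd79b, the partner chain of the gate gene in the B cell receptor, fell by 3.02 ± 0.36 on the log2 scale at D3-D5 and by 3.55 ± 0.31 at D9-D25 (edgeR adjusted p = 0.0116 and 0.000546). At D3-D5 the Ebf1 call was kept in 10 of 17 alternatives and that of Cd79b in 13, and both were lost without D3 of protocol A and without D3 or D5 of protocol B, that of Ebf1 also without D0 or D19 of protocol B.

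The exception in that list at D9-D25 was Ighm, the IgM heavy chain, at 486 and 955 CPM at D0 and 10.5 to 593 CPM on DDC (log2 change -3.05 ± 0.72, edgeR adjusted p = 0.0545). In protocol B, 68.8% of the Ighm UMIs at D3 and 71.5% at D19 were in 8 and 18 barcodes of the B cell class. Plasma cell genes were at 247 and 490 CPM of summed leukocytes in these 2 libraries, and at 729 CPM at D0 there. Whether these barcodes were plasma cells was not tested. Ighd, the IgD heavy chain of naive B cells, fell by 4.78 ± 0.72 on the log2 scale at D9-D25 (edgeR adjusted p = 0.00735) and had -3.75 ± 0.82 at D3-D5 (adjusted p = 0.0823). Iglc2, a lambda light chain constant region, and H2-Ob, a chain of the MHC class II modulator DO in B cells, fell by 5.75 ± 0.86 and 3.17 ± 0.57 at D9-D25 (edgeR adjusted p = 0.00722 and 0.0192). Without D0 of protocol B the calls of Ighd, Iglc2 and H2-Ob were lost, and over 17 alternatives they were kept 16, 16 and 15 times. Of their UMIs in leukocytes, 89.3% (Iglc2) and 26.6% (H2-Ob) were in the B cell class. The plasma cell gene Mzb1 was lower in both comparisons, as 1 of 4 plasma cell genes (0.191% and 1.09% of all genes were called lower).

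Of 9 genes of the other macrophages, Gpnmb and Trem2 were higher at D3-D5 (0.174% of all genes), and Gpnmb, Trem2, Cx3cr1 and Mmp12 at D9-D25 (0.938% of all genes). The median of the list was 0.65 and 1.02 on the log2 scale. Gpnmb was at 6.88 CPM at D0 in protocol A and at 148, 131, 222, 692 and 702 CPM at D3, D5, D9, D19 and D25. In protocol B it was at 6.35 CPM at D0 and at 244, 70.1, 134, 493 and 321 CPM on DDC. Its log2 change was 4.50 ± 0.78 at D3-D5 and 5.97 ± 0.84 at D9-D25 (edgeR adjusted p = 0.0415 and 0.00486). Trem2 rose by 2.81 ± 0.39 and 3.85 ± 0.41 (edgeR adjusted p = 0.0244 and 0.00124). The calls at D9-D25 were kept in all 17 alternatives, those at D3-D5 in 7 (Gpnmb) and 9 (Trem2), and both of the latter were lost without D3 of protocol A and without D0, D3, D5 or D19 of protocol B, that of Gpnmb also without D5 of protocol A or D25 of protocol B. Mmp12, the macrophage elastase, rose by 3.23 ± 0.51 at D9-D25 (edgeR adjusted p = 0.00937), but had an adjusted p of up to 0.0924 over 17 alternatives.

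Further genes rose at D9-D25, the vesicle protein gene Syngr1 by 4.83 ± 0.71 and the fatty acid binding protein gene Fabp5 by 3.09 ± 0.68 (edgeR adjusted p = 0.00679 and 0.0421). Of the leukocyte UMIs, 84.5% of the Syngr1 UMIs and 80.9% of the Fabp5 UMIs were in the other macrophages. The Fabp5 call was kept in 6 of 17 alternatives and the Syngr1 call in 17.

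**Figure D5:**
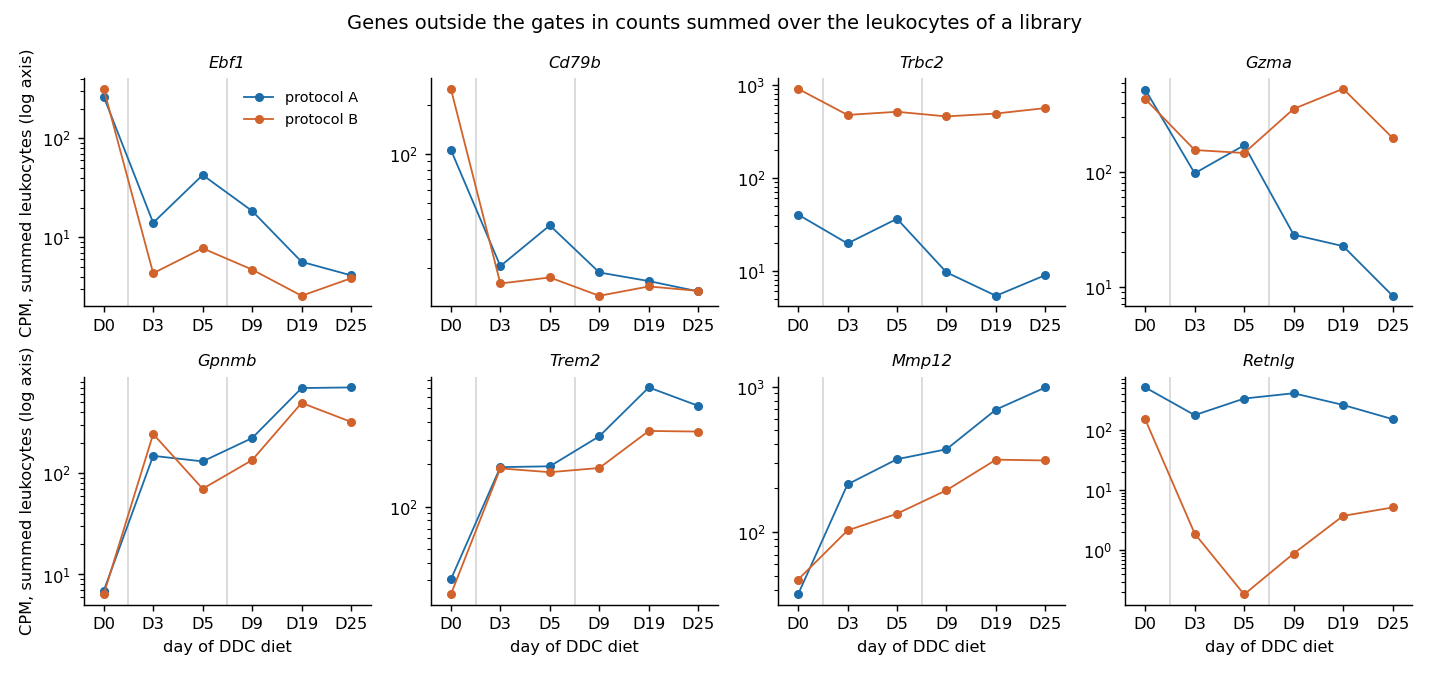
Each panel plots a gene's CPM in counts summed over the leukocytes of a library (y axis, log scale) by day of diet (x axis), in blue for protocol A and orange for protocol B, 1 point per library. Ebf1 and Cd79b are highest at D0 and Gpnmb and Trem2 lowest at D0 in both protocols, and Retnlg is at or below 5.15 CPM on DDC in protocol B.

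Genes of the other classes mostly did not pass, as was so for all genes tested. Of those, 0.365% passed at D3-D5 and 2.03% at D9-D25 against D0, and 0.0116% between these stages. A count of 0 is near that share and is not read as a result about a class. For KC 0 of 8 genes passed in any comparison, and Cd5l, Slc40a1 (an iron exporter) and Marco had log2 changes of 1.13 ± 0.56, 0.62 ± 0.52 and 2.43 ± 0.89 at D9-D25 against D0 (edgeR adjusted p = 0.319, 0.574 and 0.175). For pDC 0 of 10 passed, with Bst2, Tcf4 and Klk1 at -0.75 ± 0.35, -0.33 ± 0.28 and -2.37 ± 0.72 (edgeR adjusted p = 0.286, 0.59 and 0.111). For T cells 1 of 10, the signalling adaptor Lat, was lower at D9-D25 (1.09% of all genes). The T cell receptor genes Trac and Trbc2 had -1.28 ± 0.35 and -1.55 ± 0.42 (edgeR adjusted p = 0.0826 and 0.0806). The coreceptor gene Cd8b1 had -1.22 ± 0.44 (edgeR adjusted p = 0.169).

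Of 9 NK genes tested, Klra4 and Xcl1 were lower at D9-D25 against D0 (1.09% of all genes) and 0 were called at D3-D5 (0.191% of all genes lower). The granzyme gene Gzma was at 521 and 431 CPM at D0. On DDC it was at 170 CPM or less in protocol A and at 146 to 529 CPM in protocol B, with D19 of protocol B above D0 (log2 change at D9-D25 -2.58 ± 1.01, edgeR adjusted p = 0.201). Klre1, an NK receptor gene, had -3.15 ± 0.75 (edgeR adjusted p = 0.0545). The chemokine gene Xcl1 fell by 2.93 ± 0.66 (edgeR adjusted p = 0.0464), a call kept in 8 of 17 alternatives. Of the Gzma UMIs 59.9% were in the T class, as were 63.4% of the Xcl1 UMIs.

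Of 10 neutrophil genes, the gelatinase gene Mmp9 was lower at D3-D5 (0.191% of all genes) and Retnlg at D9-D25 (1.09% of all genes), against D0. All 10 had a negative log2 change in both comparisons, with medians of -2.02 and -0.82, and all 10 a positive one between D9-D25 and D3-D5 (median 0.84, 0 called, against 0.0116% of all genes). S100a9 was at 5159 CPM of summed leukocytes at D0 in protocol A, 2202 and 1674 CPM at D3 and D5, and 1941 to 3602 CPM at D9-D25. Protocol B had 960 CPM at D0, 69.7 and 117 CPM at D3 and D5, and 172 to 761 CPM at D9-D25. The change was -2.31 ± 0.59 at D3-D5 against D0 (edgeR adjusted p = 0.129). The decoy receptor gene Il1r2 had -0.72 ± 0.39 at D9-D25 (edgeR adjusted p = 0.354). Wfdc21, with 84.4% of its UMIs in neutrophils, fell by 1.75 ± 0.32 at D3-D5 (edgeR adjusted p = 0.0472), a call kept in 4 of 17 alternatives. Retnlg was at 507 CPM at D0 in protocol A and 151 to 406 on DDC, and at 150 CPM at D0 in protocol B and 0.185 to 5.15 on DDC. Its change of -4.54 ± 1.02 at D9-D25 (edgeR adjusted p = 0.0464) was -0.57 without D0 of protocol B, and it passed in 3 of 17 alternatives.

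Of 10 monocyte genes, Chil3 was higher at D9-D25 against D0 (0.938% of all genes). Plac8, Nr4a1 and Ly6c2 had -0.62 ± 0.21, -0.43 ± 0.21 and -0.76 ± 0.48 there (edgeR adjusted p = 0.143, 0.308 and 0.434), and the T class held 53.8% of the Ly6c2 UMIs. The other macrophage genes Cd9 and Cd68 had 0.85 ± 0.30 and 0.91 ± 0.34 (edgeR adjusted p = 0.164 and 0.177). Lists of other cell types were also read in the summed leukocytes. Among conventional dendritic cell genes H2-DMb2 was lower at D9-D25 against D0 (1.09% of all genes), as 1 of 8. Endothelial (6 genes), biliary (5), stellate cell and fibroblast (4 tested), hepatocyte (4), basophil and mast cell (3 tested), erythrocyte (4) and cycling genes (6) had 0 called in each of the 3 comparisons. The share over all genes was 0.365% at D3-D5 and 2.03% at D9-D25 against D0, and 0.0116% between these stages, so 0 is near it.

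S100a4, a calcium-binding protein of memory T cells and of monocyte-derived cells, rose by 2.23 ± 0.34 at D3-D5 and 1.74 ± 0.32 at D9-D25 (edgeR adjusted p = 0.0252 and 0.0212). Its level within the T class was 209 and 128 CPM at D0 and 279 to 954 CPM on DDC. Dnajb1, a heat-shock co-chaperone, fell by 1.91 ± 0.32 and 2.45 ± 0.29 (edgeR adjusted p = 0.0378 and 0.00224), from 196 and 460 CPM at D0 to 40.4 to 129 CPM on DDC. Scd1, a fatty acid desaturase, fell by 1.88 ± 0.30 at D3-D5 (edgeR adjusted p = 0.0311). At D3-D5 these calls were kept in 10 (S100a4), 6 (Dnajb1) and 8 (Scd1) of 17 alternatives, and at D9-D25 in 15 (S100a4) and 17 (Dnajb1).

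The endothelial hyaluronan receptor gene Lyve1 rose by 2.46 ± 0.40 at D3-D5 and the basement membrane collagen gene Col4a1 by 2.07 ± 0.26 (edgeR adjusted p = 0.0311 and 0.0162). Endothelial genes together were at 208 and 2011 CPM of summed leukocytes at D0, 440 to 3161 CPM at D3-D5 and 312 to 2051 CPM at D9-D25, and their part in these changes was not tested. Over 17 alternatives the calls at D3-D5 were kept 8 times (Lyve1) and 13 times (Col4a1), not with barcodes of 2 or more gates left out, while the log2 changes stayed at 2.24 to 2.65 and 1.88 to 2.19.

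The 2 genes lower at D9-D25 than at D3-D5 were Mup11 and Mup17, near-identical major urinary protein genes of hepatocytes whose reads may have been split between copies. Mup11 was at 35.1 and 3.67 CPM at D0, 0.611 to 10.3 CPM at D3-D5, 0.174 CPM at D9 in protocol A, and listed at 0 in the other 5 D9-D25 libraries. Mup17 was at 0.306 to 6.09 CPM at D3-D5, 0.058 CPM at D9 in protocol A and likewise at 0 in those 5. The edgeR adjusted p-values were 0.018 and 0.00852, and the calls were kept in 9 and 14 of 17 alternatives. The number of genes called was 0 without D9 of protocol A, and 1 without D3 or D25 of protocol A or D9, D19 or D25 of protocol B. Hepatocyte genes as a list were at 28.5 and 988 CPM of summed leukocytes at D0, 128 to 322 CPM at D3-D5 and 141 to 325 CPM at D9-D25.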

How the data were processed

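The authors sorted liver cells, made droplet single-cell RNA-seq libraries and mapped reads with kallisto (GRCm38 per the processing notes, version not given in the sources used here). The deposited matrices hold counts of UMIs per gene and barcode, without normalization. The library of mice returned to normal chow was not used here.

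Barcodes with at least 1500 UMIs were gated as the report says. The members and the gene lists were chosen with earlier results of these data known. Shares were compared over libraries by exact permutation within protocol, two-sided, with Benjamini-Hochberg adjustment. There were 36 arrangements for DDC against D0 and 100 for D9-D25 against D3-D5. The 9 and 16 of the stages against D0 cannot reach 0.05, so these are values with no test. Subsets needed 1 UMI after thinning to 1500 UMIs and 20 barcodes.

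Counts summed over leukocytes were fitted with edgeR 4.0.16 (TMM, filterByExpr, quasi-likelihood, 17266 of 55353 genes) in R 4.3.3, and DESeq2 1.42.0 as an alternative. On simulated data, 76% to 96% of 200 genes changed by 2 on the log2 scale were recovered. Named genes were the 3 highest tested of each class list and, per comparison, the 5 largest called changes each way among genes averaging 5 or more on the log2 CPM scale, gate, predicted, mitochondrial and ribosomal genes left out. Mup11, Mup17, list members in their own class and other called list members were named after their values were seen. One gene that the rule names is not reported here. Other floors, gate orders, denominators, tests and leaving out each library were tried. Intervals are exact binomial and cover counting error only.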

Additional observations from a re-analysis of the deposited data

Results flagged for a closer look

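The T cell share differed in direction between the isolation protocols. DDC libraries averaged 2.80 points less than D0 in protocol A (a difference of -2.80 points) and 14.3 points more in protocol B, with all 5 libraries on one side in each. The difference between the protocols was not tested.

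The NK share did so between the DDC stages. D9-D25 lay at -2.30 points against D3-D5 in protocol A and at 7.69 points in protocol B, with all 3 libraries below or above both D3-D5 libraries. This difference was not tested either.

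Among the 6 libraries of D9-D25, taken as deviations from the mean of their protocol, the B cell share at D9 in protocol A stood apart. It was 2.72%, which is 1.46 points above its protocol's mean, and its gap to the nearest library was 0.63 of the whole range. Chance flags about 1 in 20 groups, but that rate need not hold here. The SD of this share was 1.26 points in protocol A and 0.0774 in protocol B, so the pooled deviations have unlike spread.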

How the results depend on the processing

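By permutation 0 of 8 classes passed in every setting run, while edgeR on cell numbers called 2 for DDC against D0. Where 1 protocol alone was used, or days were the units, there were too few arrangements for any class to pass. The same held for DDC against D0 where a D0 library was left out. The 0 of these settings was thus fixed in advance and shows no stability. Class share differences turned their sign 24 times under other settings and kept it in the others (224 on the same side of the threshold, 2 newly past it), and turned it 6 times without a library, against 170 times not. With days as units (added after seeing the data), the smallest p were 0.167 and 0.1, and B cells and other macrophages on DDC each had p = 0.167 by exact permutation (adjusted p = 0.333). For KC, DDC against D0 was 0.435 points with gates in reverse order, 1.10 with barcodes of 2 gates left out, 0.547 over all barcodes, 0.820 without T cells and pDC, 1.2 in protocol B, 0.50 for log2 shares and 0.44 by edgeR, and D9-D25 against D3-D5 was 0.781, 0.509 and 0.590 in the first 3. For neutrophils, DDC against D0 was 0.546 with barcodes of 2 gates left out, 0.930 without barcodes of endothelial, biliary or fibroblast genes (chosen after seeing the data), 0.728 over all barcodes, 0.343 in protocol B and 0.0308 by edgeR. For T cells it was -2.80 in protocol A, -0.45 for log2 shares and -0.46 by edgeR, and D9-D25 against D3-D5 was 0.717 over all barcodes and 0.714 with Ptprc barcodes added. pDC on DDC were at 0.182 in protocol A, monocytes of D9-D25 at 0.276 thinned, NK cells at -2.30 in protocol A and other macrophages at -0.542 in protocol B. Leaving out 1 library gave ranges of -2.37 to 1.2 (KC), -2.01 to 0.343 (neutrophils), -2.80 to 14.3 (T cells) and -5.51 to 0.182 (pDC) for DDC against D0. The cause was not tested.

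Genes called at D3-D5 and D9-D25 against D0, and at D9-D25 against D3-D5, numbered 544, 1339 and 218 by DESeq2, 161, 635 and 52 with no filter, 8, 215 and 2 at a floor of 3000 UMIs, 10, 246 and 0 with barcodes of 2 gates left out, and 0, 55 and 0 with no protocol term. Without 1 library they ran from 0 to 1798, 181 to 2932 and 0 to 3. Called named genes kept their direction in all alternatives while their call was kept 105 times and lost 40 times under other settings, and kept 252 times and lost 96 times without a library. No paired analysis was possible because the replicate numbers, given in accession order, tie no library of a stage to one of another stage. The protocol does so, and was the stratum of the permutations and a term of the gene fit. With 1 D0 library per protocol, the permutation test could not reach an adjusted p of 0.05 unless most classes reached its smallest p.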

Other observations

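A UMI of Mki67 or Top2a, genes of cycling cells, was found after thinning to 1500 UMIs in 0% to 12.2% of barcodes over the 8 classes and their libraries. In the monocyte class the share was 8.57% and 10.5% at D0, 8.76% to 10.2% at D3-D5, 0.980% to 3.92% at D9-D25 in protocol A and 7.86% to 9.24% in protocol B. No class that should lack these genes gave a background share, so no difference is read from them.

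Cd8a or Cd8b1 was found in 12.2% to 47.6% of the T class per library after thinning, against 2.97% of B cells, and Trdc, a gamma-delta T cell receptor gene, in 0% to 4.55%. Neutrophil granule genes (Ngp, Camp or Ltf) were found in 3.29% and 2.25% of the neutrophil class at D0 and in 2.34% to 12.2% on DDC (exact permutation, p = 0.0667, adjusted p = 0.4). Of 49125 barcodes in no class, 25.6% had a Ptprc UMI and 12.8% had conventional dendritic cell genes as their highest list (at least 5 UMIs), a class the gates did not include.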
